A study of Mus musculus with 3 samples.

Results

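Membrane proteins and secreted proteins leave the endoplasmic reticulum in COPII-coated vesicles, pass through the Golgi and are carried to the cell surface, to endosomes or to lysosomes. Coats bud the vesicles, Rab GTPases mark them, tethering complexes such as COG, TRAPP and the exocyst catch them at the target membrane, and SNARE proteins fuse them with it. In the intestinal epithelium this traffic delivers brush-border enzymes and transporters to the apical surface and secretes mucus and hormones. The genes described here are the mouse Golgi and vesicle trafficking genes whose symbols begin with Cog, Vps, Exoc, Rab, Snx, Trappc, Stx, Vamp or Sec followed by a digit, together with the coatomer genes Copa to Copz2. Of 229 protein-coding symbols that match, 228 had a chromosomal position in the RefSeq GRCm38 table, out of 21779 positioned protein-coding genes. Vamp7, placed on a patch scaffold, had none and was not analysed here. The genes were picked by symbol, and the group as a whole was chosen by the number of H3K36me3 and SETD2 peaks in gene spans.

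Intestinal cells were taken from setd2f/f mice, in which both Setd2 alleles carry loxP sites, of strain C57BL/6 at 6 weeks of age. The labels name no Cre driver and do not say how many animals were used, and all 3 libraries share this genotype, so none served as a SETD2-deficient control. One library was made with an antibody to H3K36me3, the trimethylation of histone H3 lysine 36 that SETD2 places over transcribed gene bodies. Another used an antibody to SETD2, and the third was input DNA. With 1 library per antibody there was no replicate spread. As these very peaks also selected the trafficking genes, every count below is a description and carries no test.

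The authors' lists held 1806 H3K36me3 peaks and 186 SETD2 peaks, each with a position and a score whose scale is not stated. A gene was counted as touched when a peak overlapped its span by at least 1 bp. The lists hold no read numbers, so the depth behind a peak is unknown, and absence of a called peak is not absence of the mark. Among 20 epithelial marker genes, 3 were touched by H3K36me3 peaks (exact 95% interval 3.21 to 37.9%, against 4.51% of all protein-coding genes): the keratin gene Krt19 (score 34.39), the epithelial transcription factor gene Elf3 (34.36) and the brush-border disaccharidase gene Sis (56.08). None of 14 immune markers and none of 14 muscle, fibroblast and endothelial markers was touched (each up to 23.2%). These intervals overlap. Epcam, Cdh1 and Vil1, which define the epithelium, were among the 17 epithelial markers without a peak.

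H3K36me3 peaks touched 14 of the 228 trafficking genes (6.14%, exact Clopper-Pearson 95% interval 3.40 to 10.1%), against 4.51% of all protein-coding genes. The interval, which treats genes as independent and covers counting error only, includes the share of all genes. The touched genes were Copa and Sec23a of the vesicle coats, Cog5, Exoc1, Exoc4 and Exoc6b of the tethers, the Rab genes Rab14 and Rab27b, the SNARE genes Stx5a, Stx7, Stx12 and Vamp2, and Vps13c and Vps41 of the endosomal and lysosomal pathway. They lay on 12 chromosomes. No SETD2 peak touched any of the 228 genes, where 0.294% of all protein-coding genes had one. A count of 0 among 228 genes allows a share of up to 1.32% by the limit of 3 counts, and the exact 95% interval reaches 1.60%, so a share as low as that of all genes was not distinguishable from none.

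**Figure D1:**
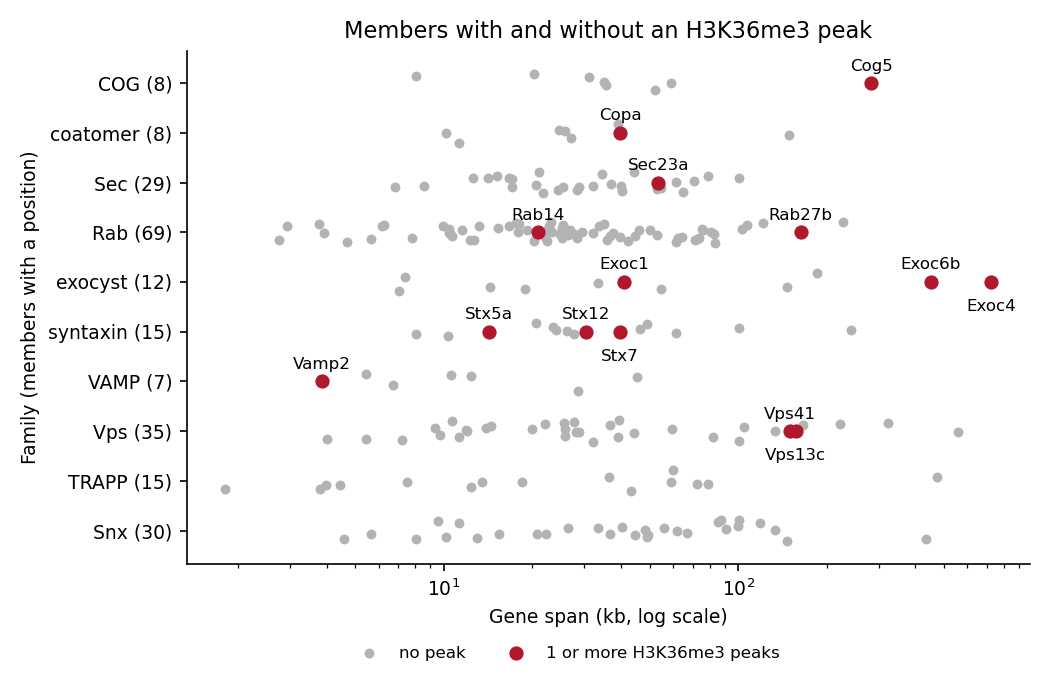
Spans of the 228 trafficking genes in kb (log axis) by family, with genes touched by an H3K36me3 peak in red and labelled; points are spread vertically for legibility only. Touched genes are found from 3.85 kb (Vamp2) to 725 kb (Exoc4), and the TRAPP and sorting nexin rows hold none.

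Longer genes were touched more often. The share of all protein-coding genes with an H3K36me3 peak was 1.33% for spans up to 20 kb, 5.18% from 20 to 50 kb, 8.63% from 50 to 150 kb and 18.1% above 150 kb. The trafficking genes were longer than average, with a median span of 28.4 kb against 17.2 kb. Taking the share touched in each of 20 length classes of all protein-coding genes, genes with the lengths of the 228 would give 12.9 touched genes, and 14 were seen, a ratio of 1.08.

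Within each length range the exact interval of the trafficking genes included the share of all genes. Peaks touched 2 of 75 members up to 20 kb (2.67%, 0.325 to 9.30%), beside 1.33% of all genes. From 20 to 50 kb they touched 5 of 87 (5.75%, 1.89 to 12.9%), beside 5.18%. In the range from 50 to 150 kb they touched 2 of 52 (3.85%), below the 8.63% of all genes but with an exact interval of 0.469 to 13.2%. Above 150 kb they touched 5 of 14 (35.7%, 12.8 to 64.9%), namely Exoc4, Exoc6b, Cog5, Rab27b and Vps13c. That interval holds the 18.1% of all genes of this length.

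**Figure D2:**
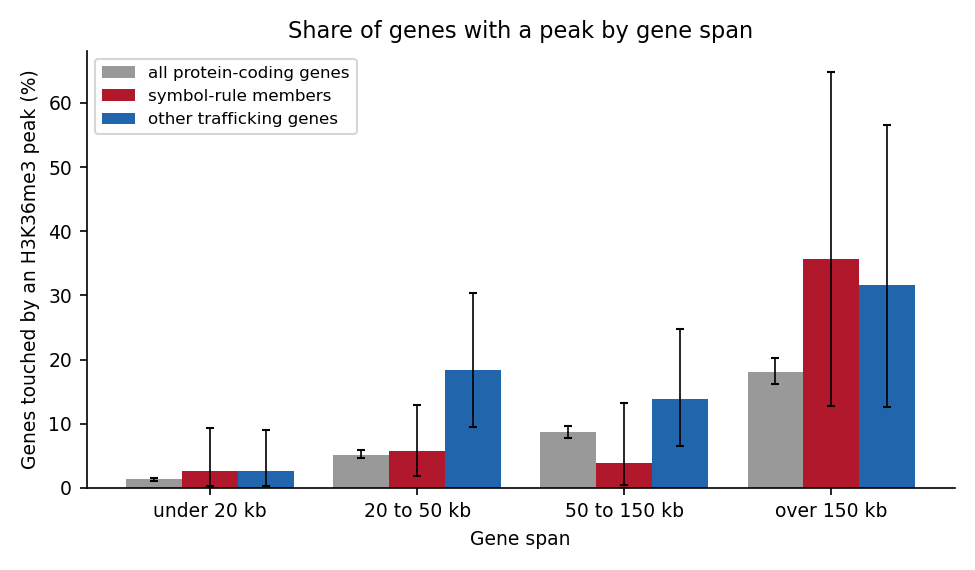
Percent of genes touched by an H3K36me3 peak (bars start at 0) in 4 ranges of gene span, for all protein-coding genes, the 228 trafficking genes and 221 other trafficking genes; error bars are exact 95% binomial intervals. The share of all genes climbs from 1.33% to 18.1% with span, and the red bars of the trafficking genes have intervals that include it in each range.

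Per length of gene, the values were similar. The members' spans summed to 12.5 Mb and held 17 peaks, or 1.36 peaks per Mb (exact Poisson interval 0.791 to 2.17), against 0.986 peaks per Mb over the summed spans of all protein-coding genes, which 1034 distinct peaks touched. Cog5 alone supplied 4 of the 17 peaks. Without it the rate was 1.06 peaks per Mb (0.566 to 1.82).

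Among the vesicle coats, the COPI coat that returns vesicles from the Golgi to the endoplasmic reticulum had 1 touched gene of 8. This was Copa, the α subunit, whose peak lay at 172093422 to 172094050 on chromosome 1 with a score of 35.19. Its centre was 11.2 kb from the 5′ end of the 39.8 kb gene. The longest coatomer gene, Copg2, spans 149 kb and had no peak within 169 kb. Of 11 genes of the COPII coat, which buds vesicles from the endoplasmic reticulum, 1 was touched. Sec23a, which encodes an inner-coat subunit, held a peak of 869 bp, the widest in the set, at 59006609 to 59007477 on chromosome 12 (score 34.91), 4.97 kb from its 5′ end. Its paralogue Sec23b and the 4 Sec24 genes, the cargo-binding partners, had none. Sec24d, at 101 kb the longest untouched Sec gene, was 236 kb from a peak. Sec61, Sec62 and Sec63, the translocon genes of the endoplasmic reticulum, had 0 of 6 touched. The exact intervals were 0.316 to 52.7% for COPI, 0.23 to 41.3% for COPII and 0 to 45.9% for the translocon genes. Each includes the 4.51% of all protein-coding genes.

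Cog5 stood apart by its number of peaks. It encodes a subunit of the COG complex, which tethers vesicles that recycle within the Golgi. Its 4 peaks on chromosome 12 were at 31670245 to 31670722 (score 30.07), 31694381 to 31694957 (33.6), 31825433 to 31826059 (40.6) and 31930610 to 31931106 (34.08). They were spread over the 283 kb gene with gaps of 23.7, 130.0 and 105 kb between the called peaks. The highest-scoring of them ranked 244th of the 1806 peaks in the list and the lowest-scoring 1782nd, close to the lowest scores. Those of 40.6 and 34.08 were at or above the list's median of 33.61, and the others were below it. The peak of score 34.08, 6.77 kb from the 3′ end, also lay in Hbp1. This is a transcriptional repressor gene on the opposite strand whose span overlaps the end of Cog5.

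No other protein-coding gene held more than 2 H3K36me3 peaks. In all, 917 genes held 1 peak, 65 held 2 and Cog5 held 4. Of 406 protein-coding genes between 226 and 354 kb, 336 had no peak, 60 had 1, 9 had 2 and Cog5 had 4. The rate in Cog5 was 14.1 peaks per Mb. Cog5 was picked for this count, so no interval is given for its rate. The 7 other COG genes had none (1 of 8 in the family, exact interval 0.316 to 52.7%, beside 4.51% of all genes). Cog1 came nearest, with a peak of score 39.48 lying 753 bp past its 3′ end, inside the neighbouring gene Fam104a. Cog7, the longest of the untouched COG genes at 58.9 kb, was 1150 kb from any peak.

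The exocyst tethers secretory vesicles to the plasma membrane. Of 12 genes with an exocyst symbol, which include the Exoc3-like genes, 3 were touched (exact interval 5.49 to 57.2%). Of the 9 that are core subunits or Exoc6b, 3 were touched (7.49 to 70.1%). The share of all genes was 4.51%, and 18.1% above 150 kb, where Exoc4 and Exoc6b lie. Exoc1 held a peak at 76563355 to 76563869 on chromosome 5 (score 32.73), at 83.7% of its span counted from the 5′ end. Exoc4, the longest of all the trafficking genes at 725 kb, held 1 peak at 33869012 to 33869484 on chromosome 6 (score 30.43), close to the lowest scores in the list. Exoc6b, at 452 kb, also held 1, at 85026759 to 85027280 on chromosome 6 (score 32.23). Per length, Exoc4 had 1.38 and Exoc6b 2.21 peaks per Mb, below Cog5 in value and each from a single peak. Whether these rates differ from that of Cog5 was not tested. Exoc2, at 185 kb the longest exocyst gene without a peak, was 342 kb from the nearest. None of the 15 TRAPP genes, which encode subunits of tethers and Rab activators, was touched (exact interval 0 to 21.8%). The longest, Trappc9, spans 472 kb and lay 61.9 kb from a peak.

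Rab GTPases, the switches that give each vesicle and organelle its identity, made up the largest family. The 69 genes with a Rab symbol included 59 GTPases and 10 genes named after a Rab partner, such as Rab11fip1 and Rab3gap1. Of the GTPases 2 were touched (3.39%, exact interval 0.413 to 11.7%, which includes the 4.51% of all genes). Of the partners 0 were touched (exact interval up to 30.8%). Rab14, which acts between the Golgi and endosomes, held a peak at 35200431 to 35200997 on chromosome 2 (score 34.3). Its centre was 0.406 kb from the 5′ end of the gene, the shortest such distance among the touched genes of known strand. Rab27b, which docks secretory granules and multivesicular bodies, held a peak in mid-gene at 70042207 to 70042962 on chromosome 18 (score 32.15). Rab11a and Rab8a, known for apical delivery in enterocytes, and the secretory granule gene Rab3d had none. Rab3c, at 227 kb the longest untouched Rab gene, was 1190 kb from a peak.

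SNARE genes held 4 of the 14 touched genes. Of 15 syntaxins, the SNAREs of target membranes, 3 were touched (exact interval 4.33 to 48.1%, which includes the 4.51% of all genes). Stx5a, the SNARE of traffic into and through the Golgi, held a peak at 8748999 to 8749781 on chromosome 19 (score 30.64). Stx7, a late endosomal SNARE, held one at 24183892 to 24184510 on chromosome 10 (score 30.84). Stx12, found on recycling endosomes, held one at 132857261 to 132857980 on chromosome 4 (score 34.28). The last lay 3.56 kb and that of Stx7 4.76 kb from the 3′ end, in genes of 30.4 and 39.7 kb. Stx3, the apical syntaxin of enterocytes, had no peak, nor did Stx8, the longest syntaxin gene at 241 kb.

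Of 7 VAMP genes, the SNAREs carried on vesicles, Vamp2 alone was touched (exact interval 0.361 to 57.9%, beside 4.51% of all genes). It was the shortest touched gene at 3.85 kb, and its peak at 69088493 to 69088988 on chromosome 11 had the second-highest score in the set (39.82, rank 276 of the list). This was also the peak nearest the limit of the overlap rule, with 461 of its 496 bp inside the gene and 35 bp beyond its lower-coordinate end. Vamp8, the VAMP of secretory granules in exocrine and mucous cells, had none. Among untouched genes the nearest peaks after that of Cog1 were 3997 bp from Snx13, 5829 bp from Vamp9, 8955 bp from Rab4b and 9887 bp from Snx32.

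In the endosomal and lysosomal group, 2 of 35 Vps genes and 0 of 30 sorting nexin genes were touched. The exact intervals, 0.70 to 19.2% and 0 to 11.6%, include the 4.51% of all genes. Vps41, a subunit of the HOPS complex that tethers late endosomes to lysosomes, held a peak at 18854252 to 18855040 on chromosome 13 (score 30.31), at 91.9% of its span. The other HOPS and CORVET genes, 6 in number, had none (1 of 7 with Vps41, exact interval 0.361 to 57.9%). Vps13c, a lipid transfer protein of late endosomes, held a peak at 67862513 to 67863224 on chromosome 9 (score 34.78). Vps13b, which acts at the Golgi, was the longest untouched trafficking gene at 560.0 kb, with a peak 90.6 kb away. The retromer genes had no peak (0 of 4, exact interval up to 60.2%). The GARP and EARP (0 of 5, up to 52.2%) and ESCRT genes (0 of 9, up to 33.6%) also had no peak. Snx29, the longest sorting nexin gene at 436 kb, was 235 kb from one. The 7 genes that match by symbol but act outside membrane traffic, such as the chromatin remodelling gene Vps72, also had 0 (up to 41%).

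**Figure D3:**
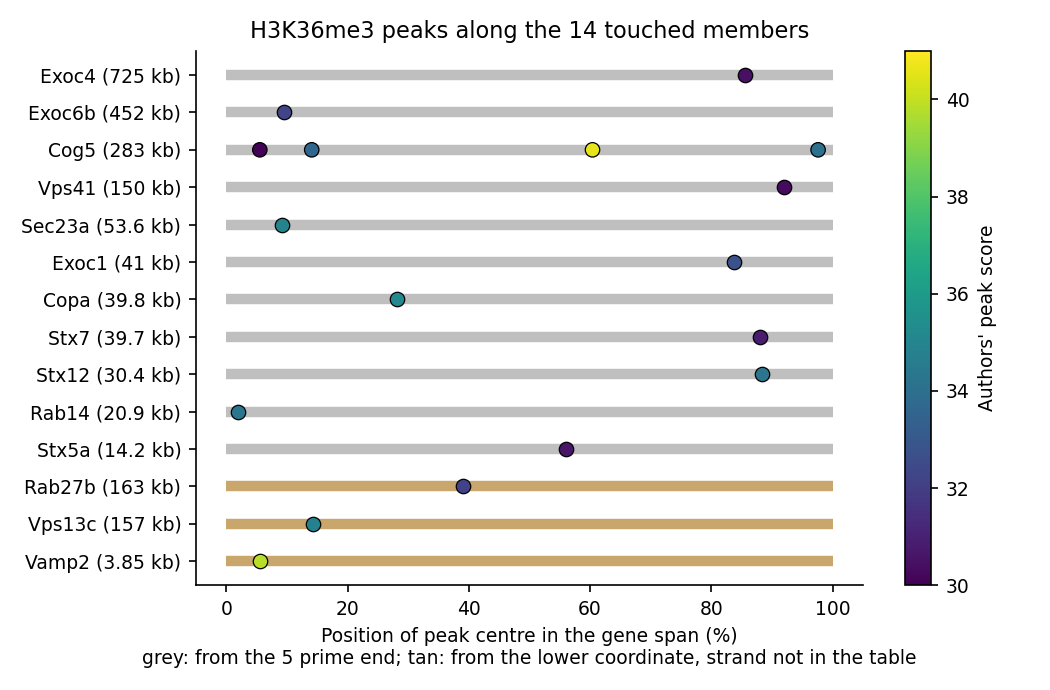
Position of each H3K36me3 peak centre along the span of the 14 touched genes, in percent, with colour giving the authors' score; grey bars run from the 5′ end, and tan bars (Rab27b, Vps13c, Vamp2) run from the lower coordinate because the promoter table holds no strand for them. Cog5 carries 4 peaks between 5.54% and 97.6% of its span, and the other genes carry 1 each.

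Peaks were found near both ends of the genes as well as between them. Strand was known for 11 of the 14 genes, which held 14 peaks. Of these, 5 were centred in the first 25% of the span (Cog5 with 2, Exoc6b, Rab14 and Sec23a) and 6 in the last 25% (Cog5, Exoc1, Exoc4, Stx7, Stx12 and Vps41). The median position was 58.2% from the 5′ end, 69.8% without Cog5 and 44.3% with peaks at or above the list's median score alone. Over the 840 pairs of a peak and a protein-coding gene with known strand the median was 48.8%, with 25.8% in the first and 27.3% in the last 25% of the span. The members' median thus moved with the peaks kept, and that of all genes was not recomputed for the higher scores. With 14 peaks the shares of 35.7% and 42.9% in the trafficking genes rest on few events. Of the 17 peaks, 16 lay wholly inside the gene, and 16 touched no other protein-coding gene. Exons and introns were not assigned.

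The scores were ordinary for the list. The 17 peaks scored from 30.07 to 40.6 with a median of 33.6, and all 1806 H3K36me3 peaks from 30 to 82.0 with a median of 33.61. Of the 17, 8 were at or above the list's median, and 243 peaks of the list scored above the highest of them. The trafficking peaks were 473 to 869 bp wide with a median of 619 bp, against 602 bp over the list. A touched gene is thus one with a short called peak in its span. The lists do not show the mark over the rest of its body.

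**Figure D4:**
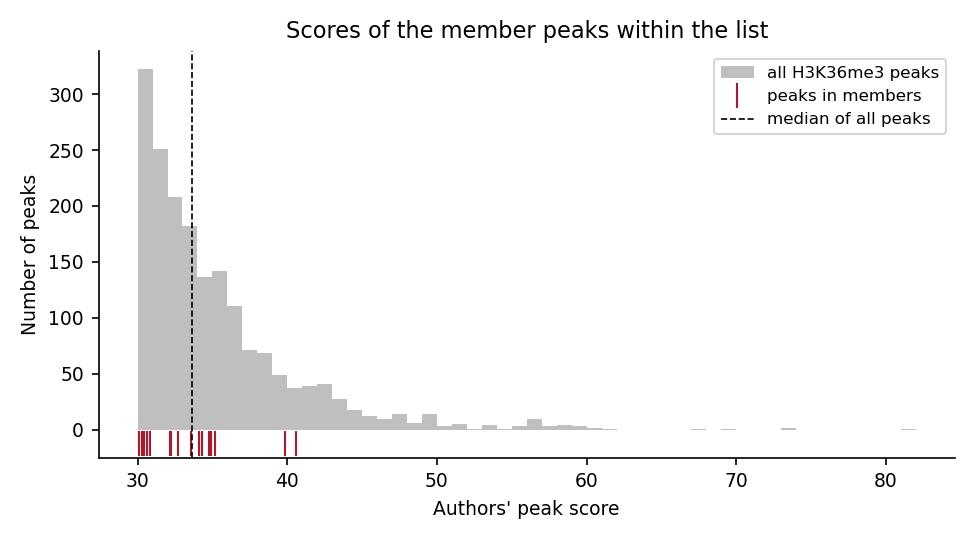
Histogram of the authors' scores of all 1806 H3K36me3 peaks (grey), with the 17 peaks in trafficking genes as red ticks under the axis and the list's median of 33.61 as a dashed line. The ticks run from 30.07 to 40.6, in the lower part of a range that reaches 82.0.

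SETD2 peaks lay far from these genes. The nearest was 26.3 kb from Rab39b on chromosome X (score 50.11), followed by 60.6 kb from Vps53 and 119 kb from Sec62. The median distance from a trafficking gene to a SETD2 peak was 5590 kb, close to the 5440 kb of all protein-coding genes without such a peak. For H3K36me3, the 214 untouched trafficking genes lay a median of 327 kb from a peak, against 381 kb for all untouched protein-coding genes.

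The 2 touched genes of known strand whose peaks were centred closest to the 5′ end were Rab14 and Sec23a. The 250 bases before their annotated starts, from RefSeq GRCm38.p6, are shown as the promoters nearest to a peak within the gene among these genes, and capitals mark GC boxes (GGGCGG read on either strand). Both are on the minus strand, Rab14 at chr2:35201121-35201370 and Sec23a at chr12:59012018-59012267, and neither window overlaps an annotated gene.
Rab14: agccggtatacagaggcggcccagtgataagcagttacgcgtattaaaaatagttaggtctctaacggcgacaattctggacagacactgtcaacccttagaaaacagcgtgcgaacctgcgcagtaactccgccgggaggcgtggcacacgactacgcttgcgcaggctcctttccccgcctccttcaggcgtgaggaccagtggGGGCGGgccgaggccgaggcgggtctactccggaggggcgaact
Sec23a: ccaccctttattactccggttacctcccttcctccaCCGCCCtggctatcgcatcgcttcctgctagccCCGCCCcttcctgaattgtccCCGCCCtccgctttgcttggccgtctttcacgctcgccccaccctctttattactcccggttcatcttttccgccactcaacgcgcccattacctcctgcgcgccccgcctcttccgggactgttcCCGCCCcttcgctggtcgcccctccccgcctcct

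The Rab14 window is 60.0% G and C with 23 CpG dinucleotides and 1 GC box, and the Sec23a window 64.0% with 22 CpG and 4 GC boxes. The letters CCAAT (the CCAAT box), searched on both strands, are in neither. The same holds for TATAAA, the TATA box. It also holds for CACGTG, the E-box, and none of the 4 motifs contains another. No H3K36me3 peak touched the 300-base promoter window at the outermost start of any of the 182 trafficking genes with an entry, and 22 of 17492 protein-coding promoters (0.126%) were touched. Vamp2, whose peak crosses its lower-coordinate end, has no entry.

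Promoter composition was compared over the 250 bases before the outermost start of each gene. The 11 touched trafficking genes with an entry had a median of 54.0% G and C and 10 CpG, and the 171 untouched ones 60.4% and 17. All 17492 protein-coding promoters had 55.2% and 10, and the 786 of all touched protein-coding genes 60.0% and 16. The touched trafficking genes thus lay below the untouched ones in both values, while touched genes as a whole lay above all genes. A GC box was present in 7 of the 11 (63.6%), in 67.8% of the untouched, in 56.9% of all touched genes and in 42.7% of all. A CCAAT box was present in 6 of the 11 (54.5%), in 35.1% of the untouched and in 36.5% of all. TATA boxes were found in 0 of the 11, in 7.02% of the untouched and in 12.4% of all, and E-boxes in 0 of the 11, 10.5% and 6.65%. With 11 genes, 1 gene more or less moves these shares by several percentage points, and no order is read from them.

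Among other trafficking genes that the symbols do not capture, the share with a peak was higher in value. A list of 222 entries, 221 distinct genes, held Arf GTPases, golgins, clathrin adaptors, other SNAREs and their partners, cargo receptors, further tethers and Rab regulators. It was drawn up from their known roles and not from their peaks, though with earlier results of these data known. H3K36me3 peaks touched 28 of them (12.7%, exact interval 8.59 to 17.8%), beside the 4.51% of all protein-coding genes. Their lengths would give 14.2, a ratio of 1.97. By length, the interval lay above the share of all genes only from 20 to 50 kb, where 11 of 60 were touched (18.3%, 9.52 to 30.4%) beside 5.18%. Up to 20 kb the interval was 0.316 to 9.07%, beside 1.33% of all genes. From 50 to 150 kb it was 6.53 to 24.7% beside 8.63%, and above 150 kb 12.6 to 56.6% beside 18.1%. Whether the list differs from the 228 genes was not tested.

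By role, the touched genes of that list were spread over all 7 groups. The exact intervals by group were wide and overlapped one another. They lay above the 4.51% of all genes for clathrin adaptors (6.19 to 32%), Golgi structure genes (5.73 to 43.7%) and Rab regulators (5.27 to 24.5%). Those of the other groups included it, with lower limits from 0.946% (Arf-related genes) to 3.3% (further tethers). Gene length was not taken into account by group. Clathrin adaptors had 6 of 37: the AP-1 genes Ap1s2 and Ap1s3, the AP-2 genes Ap2a2 and Ap2b1, and the AP-3 genes Ap3s1 (score 42.62) and Ap3b1, with 2 peaks (32.39 and 38.56). Golgi structure genes had 4 of 20: Uso1, the tether p115 (score 37.39), Cux1 (35.61), Acbd3 (34.41) and Bicd1 (33.25). Cux1 is chiefly a transcription factor gene, listed here for a golgin splice form. It spans 319 kb, and 18.1% of all genes above 150 kb were touched. Cargo receptors had 3 of 25, namely Lman1 (39.1) and Lman2 (43.91), lectins that carry glycoproteins in the early secretory pathway, and Ergic2 (35.24).

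Rab regulators had 7 of 55, including Usp6nl, a Rab GTPase-activating protein, with 2 peaks (36.83 and 47.2), Evi5l with 2 (41.57 and 30.38) and Tbc1d15 (40.23). Rabgap1 (31.47), Rims1 (31.15) and Tbc1d10a (30.53) were also touched. Myo5b, the motor that binds Rab11 on apical recycling endosomes of enterocytes, held a peak of score 30.7. Further tethers and related factors had 4 of 34: Mia3, which loads large cargo into COPII vesicles (35.03), Washc4 (32.52), and Nbas and Trip10 with 2 peaks each. Trip10 is not itself a tether or coat gene, and it is counted here and among the 28 touched genes as listed. Arf-related genes had 2 of 26 (Arl5a and Arfgap2) and other SNAREs and their partners 2 of 24 (Stxbp3 and Stxbp5). One gene of the list, Rabgap1l, which spans 574 kb, was touched by a SETD2 peak (score 53.61, beside 0.294% of all protein-coding genes with such a peak) and by no H3K36me3 peak.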

How the data were processed

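ChIP-seq of H3K36me3 and of SETD2 in intestinal cells gave 1 peak list for each antibody. The deposited peaks carry MACS in their names, and per the file names the input was the control. The score of each peak is the authors'. Per the submitters' processing notes, CASAVA 1.8 and the human build hg19 were used. For the aligner, the filters and the version of the caller, the information is not given in the sources used here. Of the 1806 H3K36me3 peaks 56.5% had their midpoint in a mouse protein-coding gene on GRCm38, and 42.7% and 41.9% after moving them 1000 kb either way, so GRCm38 coordinates, counted from 1, are used.

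Genes and spans came from the RefSeq table of GRCm38.p6, without entries starting below 3 Mb on chromosomes other than Y (patch scaffolds), and strand from the RefSeq promoter table, which covered 182 of the 228 members. Overlaps were computed with Python 3.11.15, pandas 2.3.3 and SciPy 1.17.1, and the overlap counting was tested on simulated peaks. The members' count was set beside the share touched in 20 length classes of equal gene number. No test was made. Named are all touched members, the longest untouched member of each family, the 5 untouched members nearest a peak, touched genes of the other lists, and some untouched genes of known intestinal or paralogous role, added after their values were seen. Members and lists were chosen with earlier results of these data known.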

Additional observations from a re-analysis of the deposited data

How the results depend on the processing

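The counts of touched members and of touched other trafficking genes were recomputed with other settings. So were the peak rate, the count from length classes and the median peak position. For the 4 peaks of Cog5 the only other setting merged peaks under 1 kb apart. It left 4 and could not change the count, since the gaps between these peaks are 23.7 kb or more. Counts by family, role or marker list, scores, promoters and distances were not recomputed. The 14 touched trafficking genes were the same genes with the peak midpoint, or at least 50% of the peak, required inside the span, with peaks shared with another coding gene left out, on autosomes alone and without the 7 genes outside membrane traffic. With 5 kb added on either side 16 were touched, with Cog1 and Snx13 added, and with 1 kb taken off the ends of genes over 4 kb 13 were, without Rab14. Restricting to peaks at or above the list's median score left 7 genes (2.41% of all protein-coding genes were then touched), 0.639 peaks per Mb, a count of 6.7 from the length classes and 16 of the 221 other trafficking genes. Restricting to the top scores, the upper 25% of the list, left Cog5 and Vamp2, 2 genes (1.19% of all), and 0.16 peaks per Mb. These falls follow in part from the smaller number of peaks. The count from length classes was 13.1 with 10 or 50 classes and 10.3 without regard to length. The SETD2 count stayed at 0 in every setting run. Settings without Cog5 or without genes over 400 kb, the count of 6.7, and all settings of the other trafficking genes and of peak position, were chosen after seeing the data. No paired analysis was possible because each antibody has 1 library. The missing read counts leave the depth limit of each peak unknown.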
